A study of Mus musculus and Homo sapiens with 12 samples.

Results

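L2 and MIR elements are the old, immobile repeats of mammalian genomes, and their signal in m5C-immunoprecipitated chromatin-associated RNA (caRNA) was compared between cells with and without TET2. Members were all annotated elements whose family was L2 or MIR, 1174166 of 7078039 elements in the 2 tables. The rule used no measured value, though it was chosen with earlier results of these data known. The mouse table (mm10) held 64378 L2 and 120750 MIR elements, and the human table (hg38) held 397174 and 591864.

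The 12 libraries were sequenced after immunoprecipitation of caRNA, the RNA retained with chromatin on nuclear fractionation, with an antibody against 5-methylcytosine (meRIP–seq). Mouse embryonic stem (mES) cells, which are pluripotent, were either wild type (WT) or Tet2-/- (KO), and K-562, a human line from chronic myeloid leukaemia, was either WT or TET2-/- (KO), with 3 libraries per genotype in each line. The mES cells of both genotypes were gifts from another laboratory, as were WT and TET2-/- K-562 cells, though the study also held WT K-562 cells from a cell bank and does not say which were used here. One field of the K-562 KO labels misspells the line, and no source used here gives the number of clones behind either knockout. The study calls its genome-wide replicates biological, but neither it nor the labels say whether the libraries of 1 group came from separate cultures, so p-values measure only the spread between these samples, which may be partly technical.

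An L2 is a LINE, a retrotransposon that once encoded its own reverse transcriptase, and a MIR is a short SINE whose tail resembles L2 and which is thought to have been copied by the L2 machinery. Neither has moved for a very long time, so most copies are mutated fragments inside introns and between genes, and their RNA is usually made as part of a longer host transcript. m5C in RNA is written by the NSUN enzymes and TRDMT1, and TET2 can oxidise it. The counts came from immunoprecipitated RNA alone, with no input or spike-in column used here, so any KO–WT difference here combines how much RNA was made with how much of it was bound, and is set against the other repeats of the library.

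Counts over the LINE, SINE, LTR and DNA classes ranged from 1532029 to 3318565 per mES cell library and from 498145 to 827341 per K-562 library. Depth moved with genotype in opposite directions, since the log2 ratio of mean totals, KO over WT, was −0.73 in mES cells and 0.47 in K-562 cells. In K-562 cells the 28 elements of FordPrefect, a DNA transposon subfamily, took 7.21 to 9.84% of the counts of WT libraries and 23.0 to 23.6% of those of KO libraries, which lowers the share of every other repeat in KO libraries, so K-562 shares were also taken without them. The knockouts could not be checked from these tables, because the repeats inside Tet2 held 5.1, 12.7 and 19.5 counts in WT libraries and 3.60, 17.7 and 43.3 in KO mES cells, and those inside TET2 held at most 3.67 counts in any K-562 library.

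The sequences of 4 of the elements with the highest counts show what such a member looks like and why its reads are hard to place. Each has an identical twin elsewhere in the reference assembly, alternate contigs included. Each is printed once, 5′ to 3′ on the strand of the element, with CG dinucleotides in capitals. The first is a MIRb of 178 bases inside GOLGA8B, chr15:34533478-34533655 on the minus strand of hg38, with its twin inside GOLGA8A at chr15:34387257-34387434. The second is a MIR of 202 bases in an intron of SDCCAG8, chr1:243481323-243481524 on the plus strand of hg38, with its twin on an alternate contig of chromosome 1. The third is an L2c of 248 bases between genes, chr9:67619251-67619498 on the minus strand of hg38, which shares its sequence with 1 other element. The fourth is a MIR of 130 bases in an exon of Gm16867 and Gm37094, chr14:69496024-69496153 on the minus strand of mm10, with its twin in Slc25a37 at chr14:69277774-69277903.
MIRb in GOLGA8B: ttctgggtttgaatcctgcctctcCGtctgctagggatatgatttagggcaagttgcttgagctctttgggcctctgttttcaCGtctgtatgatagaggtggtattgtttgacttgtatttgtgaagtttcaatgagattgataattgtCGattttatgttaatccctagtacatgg
MIR in SDCCAG8: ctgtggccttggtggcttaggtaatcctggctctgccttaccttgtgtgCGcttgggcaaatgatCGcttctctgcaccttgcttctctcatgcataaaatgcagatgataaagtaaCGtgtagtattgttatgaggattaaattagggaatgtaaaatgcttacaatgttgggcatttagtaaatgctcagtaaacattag
L2c on chromosome 9: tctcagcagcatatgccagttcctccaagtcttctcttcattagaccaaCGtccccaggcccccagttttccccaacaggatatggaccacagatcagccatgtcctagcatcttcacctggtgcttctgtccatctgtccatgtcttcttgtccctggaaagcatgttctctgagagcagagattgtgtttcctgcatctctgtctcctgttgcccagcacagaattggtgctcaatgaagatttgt
MIR in Gm16867: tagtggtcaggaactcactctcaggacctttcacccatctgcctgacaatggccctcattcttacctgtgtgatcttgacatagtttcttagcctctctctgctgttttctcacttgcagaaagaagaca
The human MIRb and MIR hold 3 CG dinucleotides each, the L2c holds 1 and the mouse MIR holds 0. A read that lies wholly inside any of the 4 matches both copies equally, so counts of either copy are uncertain.

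In mES cells L2 took a larger share of the repeat counts in KO than in WT libraries, whereas MIR did not separate the genotypes. The L2 share was 0.124, 0.107 and 0.0933% in WT and 0.171, 0.182 and 0.165% in KO libraries. Every KO library lay above every WT library, with a log2 ratio of 0.68 (0.108 ± 0.0154% against 0.173 ± 0.00829%, SD, n = 3; two-sided exact permutation test, p = 0.1, the smallest p that 3 against 3 allows). Adjusted over the 13 families with at least 500 counts per library on average, the exact p was 0.144, and 9 of those 13 families, or 69.2%, had shares that did not overlap between genotypes, so separation was common among families in this line. Without the highest L2 and the highest MIR element of the line, the L2 ratio was 0.55 and the groups overlapped (exact permutation p = 0.2). That L2 element held 937 of the L2 counts of the third KO library. The L2 counts themselves were 2731, 3408 and 3097 in WT and 2944, 2782 and 3303 in KO libraries. These overlapped fully while the totals were lower in KO, and the cause of the larger L2 share was not tested. L1, the active LINE family, held 63.9, 64.1 and 66.3% of counts in WT and 58.1, 59.7 and 58.6% in KO libraries. Within a library, the ratio of L2 to L1 counts differed by a log2 ratio of 0.82 between KO and WT, also without overlap (exact permutation p = 0.1). That separation was lost on L2 elements that overlap no other repeat (0.49, exact permutation p = 0.5) and on elements of short span (0.87, exact permutation p = 0.2), sets described below.

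The MIR share in mES cells was 0.0579, 0.0468 and 0.0517% in WT and 0.0565, 0.0558 and 0.0645% in KO libraries. These ranges overlapped, with a log2 ratio of 0.18 (exact permutation p = 0.3). Over MIR elements with at least 10 counts the ratio turned to −0.71 (exact permutation p = 0.3), so no direction can be given for MIR in this line. The ratio of L2 to MIR counts within a library was 2.14, 2.30 and 1.80 in WT and 3.03, 3.25 and 2.56 in KO. All KO ratios were above all WT ratios (log2 ratio 0.50, exact permutation p = 0.1). Without the highest element of each family the ratio was 0.24, with overlap (exact permutation p = 0.4). Taken as 1 group, L2 and MIR held 0.182, 0.154 and 0.145% of WT counts and 0.228, 0.237 and 0.230% of KO counts, again without overlap (log2 ratio 0.54, exact permutation p = 0.1).

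In K-562 cells L2 and MIR were far larger parts of the repeat counts, and their differences between genotypes depended on FordPrefect. The L2 share was 6.23, 6.65 and 6.43% in WT and 5.61, 6.46 and 6.15% in KO libraries. The groups overlapped (log2 ratio −0.09, exact permutation p = 0.3). Without FordPrefect in the total, the same counts gave 6.72, 7.35 and 7.13% in WT and 7.29, 8.45 and 8.03% in KO, and the ratio turned to 0.16 (exact permutation p = 0.2). The MIR share was 3.54, 3.41 and 3.13% in WT and 2.76, 2.86 and 2.98% in KO libraries. Every KO library lay below every WT library, with a log2 ratio of −0.23 (3.36 ± 0.209% against 2.86 ± 0.112%, SD, n = 3; exact permutation p = 0.1, and 0.283 after adjustment over 17 families), beside 6 of those 17 families, or 35.3%, whose groups did not overlap in one direction or the other. Without the highest element of each family the MIR ratio was −0.19 and the groups overlapped (exact permutation p = 0.2). Without FordPrefect the MIR shares were 3.81, 3.77 and 3.47% in WT and 3.58, 3.74 and 3.89% in KO, which overlapped (log2 ratio 0.02, exact permutation p = 0.7), beside 4 of 17 families, or 23.5%, that did not. L2 and MIR together went from 9.77, 10.1 and 9.56% in WT to 8.37, 9.31 and 9.13% in KO. That log2 ratio of −0.13 (exact permutation p = 0.1) became 0.12 (p = 0.2 by the same exact test) without FordPrefect. The L2 to MIR ratio, which does not depend on the total, overlapped between genotypes (log2 ratio 0.14, exact permutation p = 0.2), and the L2 to L1 ratio did not (0.35, exact permutation p = 0.1).

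The KO over WT log2 ratio differed between the lines for both families when the whole total was used. For L2 the mES cell ratio exceeded the K-562 ratio by 0.77 (exact permutation of genotype within each line over 400 assignments, p = 0.015, smallest possible 0.005). For MIR it did so by 0.41 (exact permutation p = 0.015). Without FordPrefect in the K-562 total these differences were 0.52 (exact permutation p = 0.12) and 0.16 (exact permutation p = 0.3), and neither passed 0.05.

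In most libraries the larger part of the L2 counts was on elements that overlap another annotated repeat. The annotation joins fragments of 1 insertion into an element that runs from its first to its last base, so a long element can hold younger insertions, whose reads fall in the same span. In mES cells 12.1% of L2 elements overlapped another annotated repeat, but 48.9 to 80.2% of L2 counts per library were on such elements. In K-562 cells the same held for 32.5% of elements and 57.1 to 68.1% of counts. This was no trait of L2 alone, as such elements also held 52.3 to 60.5% of L1 counts and 48.2 to 90.8% of counts of CR1, another old LINE family, in K-562 cells, and 36.0 to 36.9% and 29.2 to 75.2% in mES cells. Any overlap counts here, even where it covers few bases of the element. The overlapped repeats, assigned by the most overlapped bases, were chiefly the LTR families ERVK (14.5% of all L2 counts), ERV1 (13.4%) and ERVL-MaLR (10.8%) and the LINE family L1 (12.5%) in mES cells, and Alu (15.2%), L1 (11.7%), other L2 (11.5%) and ERVL-MaLR (8.02%) in K-562 cells. MIR, whose elements are short, had only 3.28 to 10.3% of its counts on overlapping elements in mES cells and 5.03 to 11.3% in K-562 cells. Reads from an old element and from another repeat in its span cannot be told apart, so an old origin is uncertain for L2 counts on overlapping elements. This bears on a smaller part of the MIR counts. Some of the overlapped repeats, such as other L2 in K-562 cells, are old themselves.

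Leaving out the overlapping elements moved the L2 result in mES cells. On L2 elements that overlap no other repeat, the share was 0.0525, 0.0494 and 0.0267% in WT and 0.0338, 0.0927 and 0.0461% in KO libraries. The second KO library was the highest and the groups overlapped (log2 ratio 0.35, exact permutation p = 0.6). On L2 elements spanning at most 1.5 times the consensus stretch that they match, the log2 ratio was 0.73, with overlap (exact permutation p = 0.2). In K-562 cells the L2 share on elements without overlap gave a log2 ratio of 0.06 (exact permutation p = 0.7), or 0.31 (p = 0.2 by the same exact test) without FordPrefect.

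Identical copies carried most of the MIR signal in K-562 cells. Only 4.4% of human MIR elements share their exact sequence with another element, yet they held 76.0, 73.2 and 84.9% of MIR counts in WT libraries and 52.9, 64.8 and 55.0% in KO libraries. Every KO library lay below every WT library (log2 ratio −0.44, exact permutation p = 0.1). For all other repeats, FordPrefect included, that share was 34.4 to 38.7% in WT libraries and 51.9 to 53.7% in KO libraries, the opposite order. A large share on identical copies was no trait of MIR alone. Over the 6 libraries it was 48.8 to 57.5% for hAT-Charlie, an old DNA transposon family, and 49.2 to 58.1% for Alu. It was lower for CR1 (6.91 to 45.7%) and L1 (11.9 to 22.4%). Elements on alternate or unplaced contigs, 2.55% of human MIR elements, held 38.1, 30.4 and 32.0% of MIR counts in WT libraries and 17.0, 25.2 and 25.6% in KO libraries, again without overlap (log2 ratio −0.59, exact permutation p = 0.1). L2 depended less on both, with 29.4 to 40.8% of its counts on identical copies and 22.2 to 28.1% on such contigs, and both measures overlapped between genotypes (exact permutation p = 0.2 and 0.3).

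On main chromosomes, over elements without an identical copy, the K-562 MIR difference had the opposite sign. The MIR share of this set was 0.790, 0.750 and 0.435% in WT and 1.23, 0.977 and 1.28% in KO libraries. All KO libraries were above all WT libraries, with a log2 ratio of 0.86 (exact permutation p = 0.1), and of 1.11 without FordPrefect in the total (exact permutation p = 0.1). The L2 share of the same set gave 0.07 with overlap (exact permutation p = 0.2) and, without FordPrefect, 3.90, 3.71 and 3.77% in WT against 4.45, 4.87 and 4.88% in KO, where no KO library fell within the WT range (log2 ratio 0.32, exact permutation p = 0.1). In mES cells, where elements with an identical copy held 0 to 31.3% of the L2 counts of a library, the L2 ratio over this set was 0.58 (exact permutation p = 0.1, without overlap). The reads shared between copies, the sequencing depth and FordPrefect all moved with genotype, and their part in these differences was not tested. These sets were chosen after the data were seen.

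**Figure D1:**
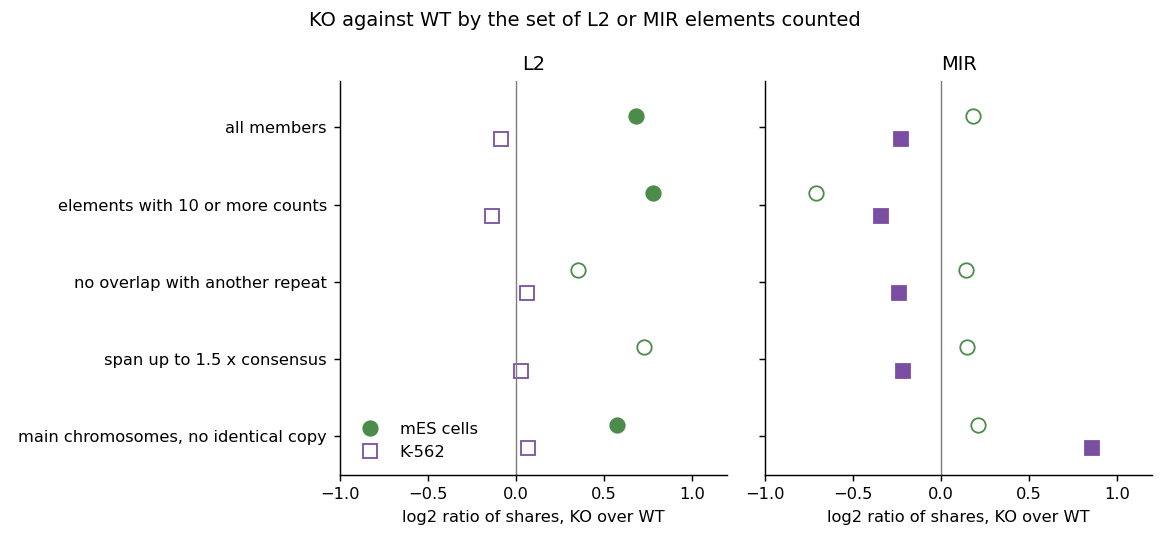
KO over WT log2 ratio of the L2 and MIR shares for all elements and for subsets of elements, in both lines; filled markers have WT and KO libraries that do not overlap, open markers have libraries that do. The K-562 MIR ratio lies at −0.23 over all elements and at 0.86 on main chromosomes without identical copies, while the mES cell L2 ratio stays above 0 in every set and loses its separation once overlapping or long-span elements are left out.

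The subfamilies of L2 and MIR, ranked here as L2a to L2d and MIR to MIRc with MIR3 and MIR1_Amn, held no called change in either line. In mES cells 11 of 20 L2 and MIR subfamilies had enough counts to test, and 0 passed an adjusted p of 0.05 in edgeR's quasi-likelihood test, beside 11 of 547 (2.01%) of all subfamilies. None of them had an unadjusted p under 0.05 or was called by DESeq2, which called 10.2% of all subfamilies, and the median log2 ratio was 0.33 for the members and 0.12 for all subfamilies. L2b had 108, 119 and 145 CPM (counts scaled to library size) in WT and 278, 164 and 165 in KO libraries. L2b did not overlap between genotypes (log2 ratio 0.70 ± 0.47, SE; edgeR adjusted p = 0.480). MIRc, with 58.7, 69.5 and 88.4 CPM in WT and 101, 99.4 and 185 in KO, was the other subfamily without overlap (0.83 ± 0.55, SE; edgeR adjusted p = 0.481), where 21.6% of all tested subfamilies did not overlap.

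The other mES cell subfamilies overlapped. L2a had 498, 411 and 409 CPM in WT and 336, 1005 and 878 in KO libraries, so its ratio of 0.75 ± 0.43 (SE) came from the second and the third KO library. L2c had 232, 114 and 110 CPM in WT and 598, 151 and 90.04 in KO, and only the first KO library was high (0.88 ± 0.77, SE, and −0.34 without that library). The log2 ratios of L2 without a letter, L2d and L2d2 were −0.35, −0.71 and 0.33. Those of MIR, MIRb and MIR3 were −0.45, −0.13 and 0.29, and edgeR's adjusted p ranged from 0.440 to 0.898 over all the named subfamilies of this line.

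In K-562 cells 11 of 21 subfamilies were tested and 0 passed in edgeR, beside 6 of 573 (1.05%) of all subfamilies, with a median log2 ratio of −0.25 for the members and 0.03 for all. One member, MIRb, had an unadjusted p under 0.05, beside 79 of all 573 subfamilies. MIRb had 14144, 19547 and 15592 CPM in WT and 10858, 10829 and 8603 in KO libraries. Its groups did not overlap, like those of 16.9% of all tested subfamilies, and its log2 ratio was −0.70 ± 0.22 (SE; edgeR unadjusted p = 0.0116, adjusted p = 0.226). DESeq2 called it (−0.79, DESeq2 adjusted p = 0.00656), as it called 10.6% of all subfamilies in either direction and 5.24% lower in KO. Over MIRb elements on main chromosomes without an identical copy the ratio was 0.47 (edgeR adjusted p = 0.614), the opposite sign.

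L2a and L2d2 were the other K-562 subfamilies without overlap, in opposite directions. L2a had 21701, 20084 and 21152 CPM in WT and 17365, 18649 and 18658 in KO libraries (log2 ratio −0.20 ± 0.16, SE; edgeR adjusted p = 0.569). L2d2 had 2253, 1939 and 2786 CPM in WT and 4783, 2918 and 5863 in KO (0.96 ± 0.44, SE; edgeR adjusted p = 0.368). None of the remaining subfamilies separated the genotypes. Their log2 ratios were −0.25 for L2 without a letter, −0.37 for L2b, −0.32 for L2c, 0.62 for L2d, −0.13 for MIR, −0.34 for MIRc, 0.39 for MIR3 and −0.58 for MIR1_Amn. On main chromosomes without identical copies the MIR subfamilies were all above 0, at 0.36 for MIR, 0.47 for MIRb, 1.11 for MIRc, 1.45 for MIR3 and 2.13 for MIR1_Amn, with edgeR adjusted p of 0.376 to 0.757.

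Single elements were mostly counted in 1 library and nowhere else. Any count at all was found on 3645 L2 elements (5.66%) and 2998 MIR elements (2.48%) in mES cells, and on 25094 L2 (6.32%) and 9674 MIR elements (1.63%) in K-562 cells. Of the counted MIR elements, 88.4% in mES cells and 85.2% in K-562 cells were counted in a single library, against 73.9 and 68.3% of the L2 elements and 54.7 and 66.8% of all other repeats. Only 5 MIR and 53 L2 elements in mES cells, and 14 and 470 in K-562 cells, were counted in all 6 libraries of their line. The same was seen at higher counts. Among elements with at least 50 counts, 11 of 13 MIR and 24 of 51 L2 elements in mES cells had at least 90% of them in 1 library, against 14.2% of other repeats. In K-562 cells the same held for 371 of 444 MIR and 540 of 870 L2 elements, against 46.2% of other repeats.

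As a result a few elements weighed heavily. The 10 highest MIR elements held 30.1, 23.2 and 36.6% of MIR counts in WT libraries and 10.3, 0.632 and 10.3% in KO mES cells. In K-562 cells they held 9.02, 34.3 and 34.1% in WT and 6.78, 7.39 and 4.94% in KO libraries. Those elements were chosen by their counts summed over the 6 libraries, and in both lines the 5 highest MIR elements were each highest in a WT library. A lower percent in KO libraries thus follows in part from the choice. How concentrated the MIR counts of KO libraries were was not tested. For L2 the 10 highest elements held 31.7, 18.8 and 12.6% in WT and 25.7, 37.8 and 37.6% in KO mES cells, and 3.42, 9.49 and 15.5% against 7.74, 3.12 and 4.53% in K-562 cells, and both overlapped between genotypes.

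The highest loci of each family showed this pattern. In mES cells the highest L2 was an L2a at chr8:20425068-20425782, minus strand, intergenic, of which 630 of 715 bases overlap an ERV1, with 85.6, 125 and 3.48 counts in WT libraries and 25.2, 0 and 937 in KO libraries. One KO library held most of it. An L2c of 4098 bases over exons of Tmem243 and Dmtf1, the latter a cyclin D-binding transcription factor gene, at chr5:9149327-9153424, had 0, 1 and 3 counts in WT libraries and 672, 0 and 0 in KO. A pair of identical L2a elements in introns of Gm21811 and Gm21092, chr8:20150356-20150499 and chr8:20581488-20581631, had 441 and 429 counts in the second KO library and 40.0 and 20.7 in the second WT library, and 0 elsewhere. An L2 at chr17:56420337-56426931, antisense to Ptprs, a receptor tyrosine phosphatase gene, had 408, 18.2 and 3.50 counts in WT libraries and 0 in all KO libraries. Of these 5 L2 loci, 4 were highest in a KO library and 1 in a WT library, and the single one with enough counts to test had an edgeR adjusted p of 0.451.

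The 5 highest mES cell MIR loci all had at least 99.8% of their counts in 1 WT library. A MIR in an intron of Rell1, chr5:63928039-63928188, had 410 counts in the third WT library and 0 in the other libraries. The twin MIR in Gm16867 and in Slc25a37, the gene of the mitochondrial iron importer mitoferrin, had 234 and 146 counts in the first WT library and 0 elsewhere. A pair of MIRb elements between genes on chromosome 12, at chr12:24249304-24249450 and chr12:22903284-22903430, had 161 and 145 counts in the second WT library. Each pair was therefore high in a single library, and none of these 5 loci had enough counts across libraries to test.

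In K-562 cells 1 of the 5 highest L2 loci separated the genotypes. It was an L2c at chr7:75412085-75414504, plus strand, in an exon of NSUN5P1, a pseudogene of the ribosomal RNA m5C methyltransferase gene NSUN5, and it had 41.5, 6.70 and 0 counts in WT libraries and 625, 729 and 273 in KO libraries. All KO libraries were above all WT libraries (log2 ratio 5.28 ± 1.98, SE, edgeR adjusted p = 0.550), where 15.2% of all tested loci did not overlap in CPM. DESeq2 called the locus (5.52, DESeq2 adjusted p = 0.00605), as it called 5.56% of all loci in either direction and 4.03% higher in KO. Of its 2420 bases, 1698 overlap 5 other repeats, with ERVK the family of most overlapped bases, and reads from NSUN5 or its other pseudogenes could be counted here, so the locus is uncertain. The remaining 4 L2 loci overlapped between genotypes. The L2c on chromosome 9 printed above had 45.7, 696 and 66.4 counts in WT libraries and 455, 156 and 187 in KO libraries. An L2c at chr8:129494036-129500170 in CCDC26, a long non-coding RNA gene, had 120, 5.00 and 1103 counts in WT libraries and 10.0, 25.8 and 429 in KO.

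All 5 of the highest K-562 MIR loci have an identical copy, and none separated the genotypes. The MIRb in GOLGA8B, a golgin gene of a duplicated region, had 99.8, 986 and 1675 counts in WT libraries and 1022, 209 and 486 in KO libraries. Its twin in GOLGA8A had 70.8, 411 and 827 counts in WT libraries and 516, 150 and 215 in KO. The 2 copies ranked the 6 libraries in the same order. The MIR in SDCCAG8, which encodes a centrosome protein, had 0, 449 and 707 counts in WT libraries and 0, 260 and 372 in KO, and its twin on the alternate contig had 0, 352 and 1221 against 0, 288 and 143. Their edgeR adjusted p ranged from 0.829 to 0.980 over the 5 loci.

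Tested across all elements, no L2 or MIR locus was called by edgeR in either line. In mES cells 16 members passed the filter on low counts (15 L2, all of which overlap another repeat, and 1 MIR), 0 were called and 2 had an unadjusted p under 0.05, beside 9 calls (0.0473%) and 4000 unadjusted p under 0.05 among 19030 loci. In K-562 cells 174 members passed (162 L2 and 12 MIR), 0 were called and 16 had an unadjusted p under 0.05. Among all 3127 loci there were 3 calls (0.0959%), all 3 higher in KO, and 234 unadjusted p under 0.05. Of the 16 members 14 were higher in KO. The direction of the 234 was not counted, so the 14 are not read as a trait of the members. Members at 0 in WT libraries entered the test through KO libraries alone. DESeq2 called 1 of the 16 in mES cells, higher in KO, beside 11.3% of all loci in either direction and 7.92% higher. In K-562 cells it called 13 of the 174, 12 of them higher in KO, beside 5.56% of all loci in either direction and 4.03% higher. CPM of WT and KO libraries did not overlap at 2 of the 16 members in mES cells (27.7% of all loci) and at 28 of the 174 in K-562 cells (15.2% of all loci). Of the 162 tested K-562 L2 loci, 114 overlap another repeat and 47 have an identical copy, and of the 12 MIR loci 8 have one. With 3 libraries per genotype and counts this uneven, the absence of calls does not show that loci or subfamilies did not differ.

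Counted elements shared features that did not enter the choice of members. They were richer in C and G than uncounted ones, with a median GC content of 45.7 against 42.9% for L2 and 45.6 against 42.6% for MIR in mES cells, and 44.6 against 41.2% and 44.3 against 40.3% in K-562 cells. CG dinucleotides per kilobase had medians of 8.89 against 4.27 for mouse L2, 9.76 against 5.08 for mouse MIR, 10.1 against 5.21 for human L2 and 8.93 against 4.78 for human MIR. Counted L2 were also longer, with a median span of 450 bp against 120 bp for all mouse L2 and of 1530 against 197 bp for human L2. Among L2 that overlap no other repeat the contrast was smaller, at 171 against 113 bp in mouse and 293 against 142 bp in human. The GC and CG medians were taken over whole spans, other repeats inside them included. MIR lengths were close, at 127 against 117 bp in mouse and 168 against 148 bp in human. A longer element gathers more reads, and host genes also differ in base content, so these are descriptions of where counts fell. Count-weighted GC content was 44.4 to 47.2% in every mES cell L2 library and overlapped between genotypes in both families and both lines.

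Along the L2 consensus most fragments lie near the 3′ end, since reverse transcription of a LINE starts there, and counted copies reached further in. The median matched stretch of L2a was 139 consensus bases over all mouse copies and 465 over counted ones, and 232 and 687.5 in human. The median midpoint of counted L2a was consensus position 3101 of 3426 in mouse and 3050.5 in human. For MIR the stretches were 133 and 142 bases in mouse and 183 and 190 in human, of a consensus of 262.

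Where elements lay in genes, K-562 MIR counts followed the host's strand. Among gene-borne MIR, 50.8% of elements had the orientation of their gene, but 82.0 to 91.2% of counts per K-562 library did, against 53.5 to 81.1% for L2 (46.0% of elements) and 65.8 to 77.3% for all other repeats. In mES cells the sense part was 54.7 to 76.9% of MIR counts (51.1% of elements), 29.8 to 74.6% of L2 counts (43.9%) and 37.2 to 41.2% of counts of all other repeats. Whether the deposited counting used strand is not given in the sources used here, so this describes the orientation of the counted elements and not of the reads. Over L2 and MIR together the sense part did not separate the genotypes (mES cells 50.6, 57.7 and 56.4% in WT and 47.6, 74.3 and 50.4% in KO, exact permutation p = 1; K-562 62.8, 69.6 and 84.2% and 73.3, 78.1 and 76.7%, exact permutation p = 0.6). The intronic part of their counts on annotated chromosomes overlapped too, at 32.1, 39.4 and 56.7% in WT and 38.4, 64.4 and 39.4% in KO mES cells (exact permutation p = 0.7), and 59.0, 56.7 and 51.2% and 56.1, 57.4 and 62.0% in K-562 cells (exact permutation p = 0.5). Reads of a host transcript and of an element with its own start cannot be told apart in these counts.

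By host gene, the counts were spread over many units. The counted human L2 inside genes lay in 9829 genes or sets of overlapping genes and the counted MIR in 4920, and the leading one held 1.09% of L2 counts (CCDC200) and 3.70% of MIR counts (GOLGA8B). VAMP7, a vesicle fusion gene, had 50.8, 0 and 1891 L2 counts in WT libraries and 368, 183 and 143 in KO libraries. PDE4DIP, the gene of myomegalin, had 334, 36.3 and 428 MIR counts in WT libraries and 73.1, 309 and 252 in KO. In both the groups overlapped. Among leading mouse hosts, Slc2a9, a urate transporter gene, was the most even, with 46.1, 55.3 and 46.0 L2 counts in WT libraries and 36.1, 42.5 and 32.1 in KO libraries. The Slc2a9 counts are not scaled to library size. Mean totals were lower in KO mES cells (log2 ratio −0.73), so no direction is read from them.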

How the data were processed

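Precipitated caRNA of 12 libraries was sequenced. Per the study's methods and the submitters' processing notes, reads were trimmed (Trimmomatic 0.39), aligned to mm10 or hg38 (HISAT2 2.1.0), freed of duplicates (Picard) and counted with featureCounts on repeats joined by One code to find them all. The deposited tables hold the authors' estimated counts per element, which are fractional where reads were shared (smallest non-zero value 0.03). Whether counting used strand is not given in the sources used here.

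Here, shares of the LINE, SINE, LTR and DNA counts were compared by two-sided exact permutation over libraries (20 assignments, or 400 over both lines). Counts rounded to whole numbers, summed per subfamily or per element, were tested over all features with edgeR 4.0.16 (quasi-likelihood, filterByExpr, TMM, R 4.3.3) and DESeq2 1.42.0 as an alternative, with Benjamini-Hochberg adjustment. Scripts were tested on simulated data. Identical copies were elements of at least 50 bp with the same sequence, and overlaps came from the table's own coordinates. Gene context came from GENCODE M21 and v44, and sequence from the GRCm38 and hg38 genomes; 243 mouse elements lay on contigs not used here. Named were tested subfamilies whose mean reached 50 counts per library, and the 5 highest L2 and 5 highest MIR elements per line. Other settings were other scalings and filters, leaving out libraries or high elements, and a replicate block. The members and lists were chosen with earlier results of these data known.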

Additional observations from a re-analysis of the deposited data

Results flagged for a closer look

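The KO over WT log2 ratio of the L2 share differed between the lines, with mES cells 0.77 above K-562 cells (0.68 against −0.09; exact permutation of genotype within lines, p = 0.015). The same difference for the MIR share was 0.41 (0.18 against −0.23; exact permutation p = 0.015). Both were listed because the difference itself passed an exact test at 0.05. They were 0.52 (exact permutation p = 0.12) and 0.16 (exact permutation p = 0.3) once FordPrefect was left out of the K-562 total, and −0.65 for MIR on main chromosomes without identical copies (exact permutation p = 0.185). On MIR elements that overlap no other repeat the difference was 0.38 (exact permutation p = 0.04).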

How the results depend on the processing

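Precision was limited by 3 libraries per genotype and by depth, most of all for mES cell MIR, whose libraries held at most 1716 counts. Counts on identical copies and on overlapping repeats cannot be assigned to 1 element. The cause of the changes below was not tested. The sets by overlap, span and identical copies, the L2 to L1 ratio and the shares on copies and contigs were added after the data were seen.

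In mES cells the log2 ratios of the L2 share (0.35 to 0.78), of L2 and MIR together, of L2 to MIR and of L2 to L1 stayed above 0 under every alternative run, but the groups often overlapped. Without the highest element of each family the L2 ratio was 0.55 (exact permutation p = 0.2), and the L2 to MIR ratio was 0.24 (exact permutation p = 0.4). The latter was 0.21 without overlapping members, 0.58 on short spans and 0.37 on single-copy members, meaning those on main chromosomes without an identical copy (exact permutation p = 0.7, 0.3 and 0.3). The MIR share turned to −0.71 on elements with at least 10 counts, and the sense part to −0.20. Without 1 library in turn the intronic part ranged from −0.10 to 0.37 and the sense part from −0.16 to 0.16.

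In K-562 cells the L2 share ratio of −0.09 became 0.16 without the 10 highest elements of the table, 0.16 without FordPrefect, 0.063 without overlapping members, 0.032 on members of short span and 0.068 on single-copy members. With FordPrefect also left out, the last 3 became 0.31, 0.28 and 0.32. The MIR share ratio of −0.23 became 0.015 without the 10 highest elements, 0.021 without FordPrefect and 0.86 on single-copy members, and, with FordPrefect also left out, 0.012 without overlap, 0.036 on short spans and 1.11 on single-copy members. Both families together turned from −0.13 to 0.11, 0.12 and 0.22 in the first 3 of these, and to 0.14, 0.16 and 0.47 in the last 3. The L2 to MIR ratio turned to −0.79 on single-copy members. Without 1 library in turn the share ratios ranged from −0.13 to −0.03 for L2, and the sense part from −0.0097 to 0.20.

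The difference between lines for L2 was 0.52 without FordPrefect, 0.55 without the 10 highest elements, 0.29 without overlap, 0.70 on short spans, 0.51 on single-copy members and 0.26 with FordPrefect also left out, and none of these passed 0.05 (exact permutation p = 0.11 to 0.635). On L2 elements with at least 10 counts it was 0.92 and passed (exact permutation p = 0.01). For MIR it was 0.16 without FordPrefect, 0.19 without the 10 highest elements and −0.37 on elements with at least 10 counts. On single-copy MIR members it was −0.65, and −0.90 with FordPrefect also left out. None of these MIR values passed (exact permutation p = 0.12 to 0.695). The MIR difference did pass without overlap (0.38) and on short spans (0.36, exact permutation p = 0.04 for both). Without 1 library in turn the differences stayed at 0.66 to 0.87 and 0.33 to 0.49, and both still passed.

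No member subfamily was called under any edgeR setting. DESeq2 called 1 K-562 subfamily (MIRb, −0.79), 1 mES cell locus and 13 K-562 loci, among them the L2c in NSUN5P1 (5.52). In mES cells, leaving out 1 library turned L2c (−0.34 to 1.31), L2d (−1.08 to 0.12) and MIRb (−0.28 to 0.064). On single-copy members mES cell L2d became 0.42 and MIR 0.034, and with library totals MIRb became 0.054. In K-562 cells, leaving out 1 library turned L2 (−0.46 to 0.11) and MIR (−0.24 to 0.062). K-562 L2a became 0.87 without overlap and 0.51 on short spans. On single-copy members K-562 L2 became 0.28, L2d −0.10, MIR 0.36, MIRb 0.47, MIRc 1.11 and MIR1_Amn 2.13. Over all subfamilies edgeR called 11 in mES cells and 5 to 8 without 1 library, and 6 in K-562 cells and 0 to 4 without 1 library. DESeq2 called 56 and 61.

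Samples with the same replicate number did not deviate together (correlations −0.09 to −0.04 in mES cells and −0.09 to 0.04 in K-562 cells), so numbers were taken as names. With the replicate block 0 member subfamilies and 0 member loci were called in either line, over all subfamilies the calls went from 11 to 0 in mES cells and from 6 to 7 in K-562 cells, and over all loci from 9 to 0 and from 3 to 3. Paired by number, the mES cell L2 share ratio of 0.68 had an exact sign-flip p of 0.25, the smallest that 3 pairs allow.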

Other observations

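The K-562 member loci with the lowest p were chosen after their values were seen. They had 0 counts in all WT libraries, so they passed the filter on low counts through the KO libraries alone. Their p-values are therefore given as description only. A MIR3 in an intron of KMT2C, a histone H3K4 methyltransferase gene, at chr7:152386300-152386397 had 99.0, 142 and 36.5 counts in the KO libraries. An L2a in an exon of NBPF8, a gene of a large duplicated family, at chr1:120419732-120420273 had 102, 192 and 47.8. An L2c on an alternate contig of chromosome 16 had 93.7, 138 and 84.5. All 3 had an edgeR adjusted p of 0.202.

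In mES cells the lowest p among members was at an L2a of 5624 bases at chr1:76614333-76619956. Its overlaps with other repeats summed to 4728 bases, and the repeat overlapped most was an ERVK. It had 18.1, 13.2 and 17.9 counts in WT libraries and 44.2, 93.5 and 94.6 in KO libraries. The KO libraries were all higher (log2 ratio 3.04 ± 0.54, SE; edgeR adjusted p = 0.101, DESeq2 adjusted p = 1.6e-05). A similar L2b of 6251 bases lay at chr1:104288884-104295134, with overlaps summing to 5672 bases and an ERVK again overlapped most. It had 23.0, 55.1 and 145 counts in WT libraries against 9.01, 9.27 and 7.24 in KO libraries, the opposite order (−1.88 ± 0.64, SE; edgeR adjusted p = 0.168).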
